A study of Mus musculus with 2 samples.

Results

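Regulators of transcription that direct the hair lineages were compared between the bulge and the hairshaft of the mouse hair follicle. They are Foxn1, Msx1, Msx2, Dlx3, Ovol1, Prdm1, Gata3, Vdr, Hr and Trps1, chosen by gene symbol, 10 of 18194 genes on the array, with 20 of its 45101 probe sets. Both structures were cut by laser from eosin-stained frozen skin of C57Bl6 mice aged 21 days, and 30 ng of total RNA from each was amplified and hybridised. No treatment and no altered allele is named in the labels for either structure. There was 1 array for the bulge, the stretch of outer root sheath where follicle stem cells lie, and 1 for the hairshaft, so there was no replicate spread to hold a difference against and no test was run. The labels give neither the number of animals nor how the structures were recognised under the microscope.

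A follicle builds the hair from matrix cells that leave the cycle and turn into shaft, cuticle or inner root sheath. The homeobox factors Msx1, Msx2 and Dlx3 and the forkhead factor Foxn1 are known for driving shaft differentiation, with Msx2 acting upstream of Foxn1. Gata3 is known for specifying the inner root sheath, and the vitamin D receptor Vdr and its corepressor Hr (hairless) for the renewal of the hair cycle. Several of them also work outside the follicle: Foxn1, Dlx3, Ovol1, Prdm1 and Gata3 act in the differentiating epidermis.

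All values are log2 GCRMA values, a microarray summary that corrects background from probe sequence, and differences are bulge minus hairshaft. The background floor was 2.68 on both arrays; it is the 95th percentile of the signal of 80 olfactory and vomeronasal receptor probe sets, which stand for genes that skin was not expected to use. Each gene is represented by its brightest probe set (highest mean of both arrays), and the others are given beside it. Probe sets bind with different strengths, so levels are compared between structures and not between genes.

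The label of the hairshaft array was not borne out by its markers. Of 10 measured hair shaft keratins, the bulge array was the brighter by 2-fold or more for 6, led by Krt33a, Krt31, Krt86 and Krt34, and the hairshaft array for none. For the inner root sheath, 6 of 10 genes, led by Krt25, Tchh, Krt27 and Krt71, passed 2-fold toward the bulge array and none toward the other. Bulge markers followed their label for 7 of 9 genes, led by Lhx2, Foxc1, Sox9 and Lgr5; Itga6 passed 2-fold the other way (-1.10, or -0.68 when its probe sets were averaged). The bulge array also carried markers of 5 other cell types. Skeletal muscle genes passed 2-fold in its favour for 9 of 9 (median 11.33, or 9.86 with the floor at the 99th receptor percentile), led by Acta1, Tnni2, Tnnc2 and Tnnt3. Adipocyte genes did so for 6 of 6 (8.08, or 6.58), led by Fabp4, Adipoq, Car3 and Cidec. Sebaceous gland genes did so for 5 of 5 (6.51, or 6.24), led by Elovl3, Cidea, Far2 and Plin2. Scd1 also passed 2-fold (2.82), and Mc5r was not above the floor. Endothelial genes did so for 7 of 7 (3.11, or 2.04), led by Pecam1, Esam, Tek and Kdr, and melanocyte genes for 5 of 5 (2.17, or 1.28), led by Dct, Pmel, Tyrp1 and Mitf. Tyrp1 was under 2-fold with that higher floor (0.64), and Mitf when its probe sets were averaged (0.86). Sox10 also passed 2-fold (1.06) but was at 0.35 when averaged, so that 3 melanocyte genes passed with the mean of probe sets. The melanocyte genes Tyr and Mlana were measured but not above the floor. With values under the floor raised to it, the summed linear signal in the bulge was at least 1862 times that in the hairshaft for muscle, 539 for fat and 12.5 for vessels, and 9.28 times for the sebaceous list. Below, "bulge" and "hairshaft" mean the arrays so labelled.

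None of the 9 hair factors above the floor reached a 2-fold difference in either direction. Over all 13329 genes above the floor, 11.4% passed 2-fold toward the bulge and 4.91% toward the hairshaft. The differences ran from -0.91 to 0.56 with a median of -0.51, while the median of all genes was 0.00. Over the 9 alternatives the median of the factors ran from -0.58 (99th percentile floor) to -0.28 (no floor, which takes in Msx1). It was -0.35 with the loess trend removed and -0.38 with the mean of probe sets, so its size depends on the processing. The hairshaft had the higher value for 6 factors (Ovol1, Dlx3, Foxn1, Prdm1, Gata3 and Vdr) and the bulge for 3 (Trps1, Hr and Msx2, of which Msx2 lay so near the floor that its direction is not relied on); with the loess trend removed Vdr changed sides, for 5 and 4. Among all genes, 46.6% leaned toward the hairshaft and 44.9% toward the bulge. In tissue samples such as these, fewer cells of a type and less RNA per cell cannot be told apart.

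**Figure D1:**
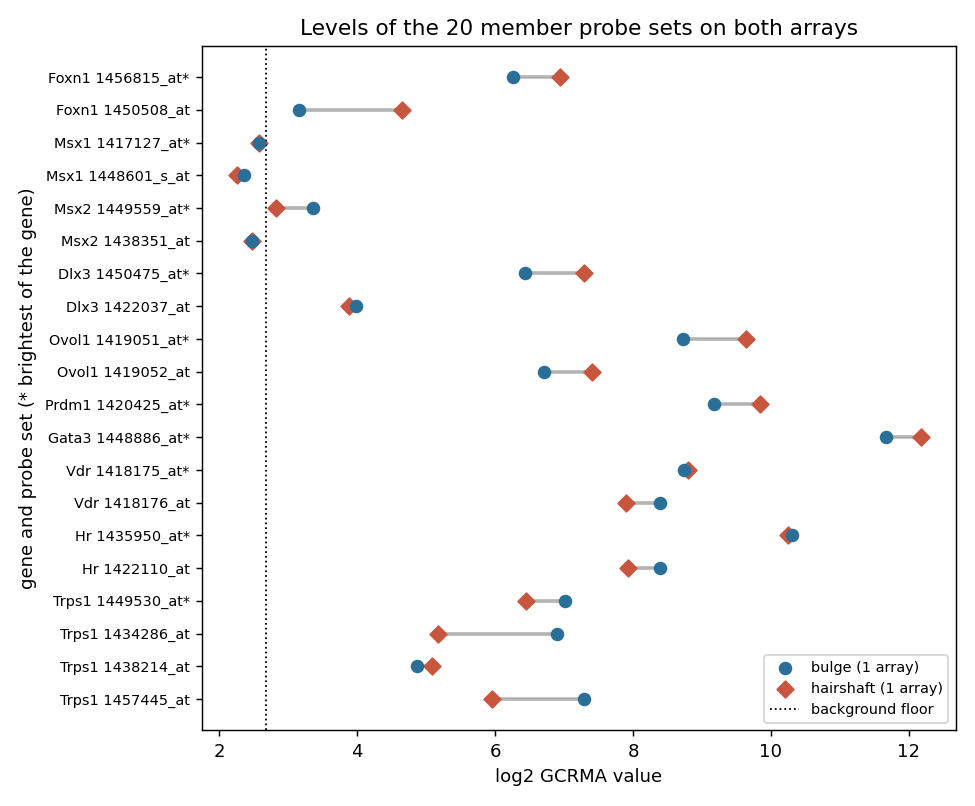
Log2 GCRMA value (horizontal axis) of each of the 20 probe sets (vertical axis) on the bulge array (circles) and the hairshaft array (diamonds), with the background floor dotted; an asterisk marks the brightest probe set of a gene. Ovol1, Prdm1, Gata3 and Foxn1 read higher in the hairshaft with every probe set, and both Msx1 probe sets lie under the floor of 2.68.

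Foxn1, the gene mutated in nude mice, read 6.26 in the bulge and 6.94 in the hairshaft with probe set 1456815_at, which is 1.60-fold higher in the hairshaft. Its dimmer probe set 1450508_at read 3.16 and 4.65, a difference of -1.49 or 2.82-fold in the same direction. Both probe sets were thus higher in the hairshaft, and only the dimmer one passed 2-fold; with the mean of both, the difference of Foxn1 was -1.09. Its relatives Foxn2 and Foxn3 also read higher in the hairshaft, by -0.34 and -0.96 in bulge minus hairshaft, or -1.09 and -0.85 with the mean of probe sets. Foxn4 read 3.10 in the bulge and lay under the floor in the hairshaft (at least 0.43).

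The Msx genes gave little signal. Msx1 was not above the floor on either array: probe set 1417127_at read 2.58 on both, and 1448601_s_at read 2.36 in the bulge and 2.25 in the hairshaft. Msx2 read 3.36 in the bulge and 2.82 in the hairshaft with 1449559_at, a 1.46-fold difference close to the floor, and 2.47 on both arrays with 1438351_at. When the floor was set at the 99th percentile of those receptors (4.21), Msx2 was not above it on either array, so its direction is not relied on. Exact ties such as those of 1417127_at and 1438351_at were common: 17293 probe sets (38.3%) had the identical value on both arrays, 3267 of them above the floor, and among genes above the floor 1150 (8.63%) were tied. A tie in this summary is therefore not taken as a measured equality.

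Dlx3, a distal-less homeobox factor of the hair shaft and the upper epidermis, read 6.43 in the bulge and 7.29 in the hairshaft with 1450475_at, or 1.81-fold higher in the hairshaft. Its dimmer probe set 1422037_at read 3.98 and 3.88, slightly the other way (0.10, and -0.0022 with quantile normalization). The direction of Dlx3 thus rests on the brighter probe set, and with the mean of both the difference was -0.38 in place of -0.86. Dlx5, the other distal-less gene above the floor, differed by -0.52; Dlx1, Dlx2, Dlx4 and Dlx6 were not above it.

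Ovol1 had the largest difference of the 10 by brightest probe set. This zinc finger repressor, which slows the growth of progenitor cells as they differentiate, read 8.73 in the bulge and 9.64 in the hairshaft with 1419051_at, or 1.88-fold higher in the hairshaft. Its second probe set, 1419052_at, read 6.71 and 7.40, or 1.62-fold in the same direction. The probe sets of Ovol1 lay 0.22 apart in their differences, against a median of 0.36 over the 3544 genes with 2 probe sets above the floor, and 6.17% of all genes lay at or below its difference of -0.91. Its relative Ovol2 was higher in the hairshaft too, at 2.99 and 4.22 (-1.24), a difference that became -0.01 with the 99th percentile floor, -0.69 when the array's median value served as floor and -0.54 with an offset of 16.

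Prdm1 (Blimp1), a zinc finger repressor known from epidermis, sebaceous gland, dermal papilla and plasma cells, read 9.18 in the bulge and 9.84 in the hairshaft. It was 1.58-fold higher in the hairshaft, measured with 1 probe set. Gata3, also measured with 1 probe set, read 11.67 in the bulge and 12.18 in the hairshaft (-0.51). Its relative Gata6, a factor of the upper follicle and sebaceous duct, went the other way at 6.45 in the bulge and 3.47 in the hairshaft (2.99, and 1.54 when its probe sets were averaged).

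At a limit of 1.5-fold, chosen after the values were seen, Ovol1, Dlx3, Foxn1 and Prdm1 were higher in the hairshaft, 4 of 9, and none was higher in the bulge. The count toward the hairshaft was 3 under 3 alternatives: Dlx3 dropped out with the mean of probe sets (-0.38), where Trps1 passed toward the bulge (0.85), Foxn1 with the offset of 16 (-0.5827) and Prdm1 with the loess trend removed (-0.54). Of all genes, 13.8% passed that limit toward the hairshaft and 18.5% toward the bulge. Markers of 3 other cell types leaned toward the same array. Suprabasal epidermis genes read higher in the hairshaft for 8 of 8 measured members (5 of 8 with the loess trend removed and 7 of 8 with quantile normalization), 4 of them at least 2-fold (Casp14, Ivl, Cdsn and Lce1c), and their summed linear signal was 1.25 times that of the bulge. Of these, Casp14 fell short of 2-fold when probe sets were averaged (-0.97), and Lce1c with the loess trend removed (-0.89) and with quantile normalization (-0.99). T cell genes, set beside Gata3 because T cells also express it, were higher in the hairshaft for 6 of 6, with Cd3d, Cd3e and Cd2 past 2-fold (Cd2 at -0.76 with the 99th percentile floor and -0.63 with the offset), and a summed signal 2.17 times that of the bulge. Of the 6, Cd4 and Cd8a were not above the 99th percentile floor on either array, so their directions are not relied on. The probe sets of Cd4 also pointed opposite ways (-0.27 and 0.05). Fibroblast genes were higher in the hairshaft for 5 of 7 (4 of 7 with the loess trend removed), with the collagen chains Col1a1 (-2.49), Col1a2 (-1.47) and Col3a1 (-1.24) past 2-fold and Postn past it toward the bulge (1.69), and a summed signal 1.82 times that of the bulge. Sebaceous gland genes, set beside Prdm1, went the other way, as given above. Genes of B and plasma cells, which use Prdm1, had 3 of 5 measured members above the floor, all under 2-fold apart. They were Jchain (0.87), Sdc1 (-0.19) and Xbp1 (-0.29), which did not share a direction. The B cell receptor genes Cd79a and Cd79b were not above the floor. The part of these cells in the values of the 4 factors and of Gata3 was not tested.

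**Figure D2:**
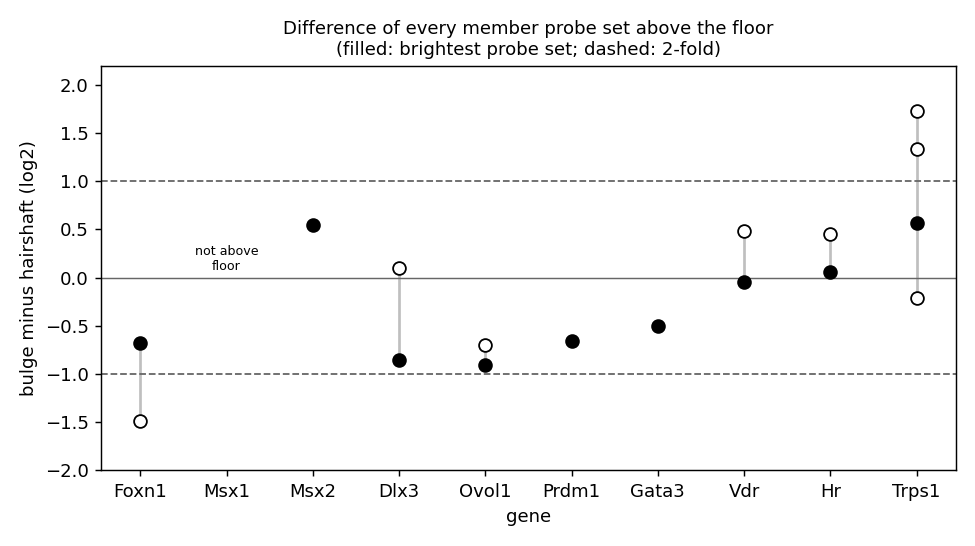
Bulge minus hairshaft difference (log2, vertical axis) of every probe set above the floor, by gene (horizontal axis); filled points are the brightest probe set of each gene, open points the others, and dashed lines mark 2-fold. The 4 Trps1 probe sets spread from -0.21 to 1.73, whereas those of Ovol1 lie together at -0.91 and -0.70.

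Vdr and Hr, the receptor and corepressor pair, were nearly level by their brightest probe sets. Vdr read 8.74 in the bulge and 8.79 in the hairshaft with 1418175_at, and 8.39 and 7.90 with 1418176_at, so its probe sets point opposite ways (-0.05 and 0.49; 0.05 and 0.55 with the loess trend removed). Hr, a nuclear corepressor whose loss leaves mice hairless, read 10.30 in the bulge and 10.25 in the hairshaft with 1435950_at and 8.38 and 7.93 with 1422110_at. Both probe sets of Hr were higher in the bulge, by 0.05 and 0.45. With the mean of probe sets the differences were 0.22 for Vdr and 0.25 for Hr. Of all genes, 83.0% were at least as far apart as Vdr and 82.5% as Hr, and with 1 array each this does not show equal expression. Rxra, the retinoid X receptor that pairs with Vdr, was 9.39 and 9.28. In the list of receptor, corepressor and coactivator partners, 12 of 13 genes above the floor differed by under 2-fold, and the median was -0.23; the exception was Kdm3b, a histone demethylase related to Hr, which differed by 1.27 toward the bulge, or by 0.63 when its probe sets were averaged. Cyp24a1, the classical vitamin D target, was not above the floor.

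Trps1, an atypical GATA-type repressor whose loss causes sparse hair in tricho-rhino-phalangeal syndrome, was the factor with the widest spread between probe sets. The brightest, 1449530_at, read 7.01 in the bulge and 6.44 in the hairshaft, or 1.48-fold higher in the bulge. Probe set 1457445_at read 7.29 and 5.96 (2.53-fold higher in the bulge), and 1434286_at read 6.90 and 5.17 (3.33-fold higher in the bulge). The fourth and dimmest, 1438214_at, read 4.87 and 5.09, slightly higher in the hairshaft. So 3 of the 4 were higher in the bulge, 2 of them past 2-fold, and the mean of the 4 gave 0.85. Their differences ranged over 1.95, and 14.5% of the 653 genes with 4 probe sets above the floor had a range at least as wide (median 0.90). Dermal papilla genes, set beside Trps1 because it is also known from that structure, were divided: of 6 above the floor, Wif1 and Notum passed 2-fold toward the bulge, Vcan did so toward the hairshaft and 3 were under 2-fold apart, while Corin, Sox2 and Alx4 were not above the floor. Notum was at 0.29 with the 99th percentile floor, and Vcan at -0.45 with the mean of its probe sets. The part of muscle, fat, vessel or dermal cells in the Trps1 values was not tested.

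Taking all probe sets of the 10 genes singly, 17 of 20 were above the floor on at least 1 array. Of the 17, 3 passed 2-fold: 2 of Trps1 toward the bulge and 1 of Foxn1 toward the hairshaft, the latter with a bulge value near background. Over the 24173 probe sets with 1 gene symbol above the floor, 9.87% passed 2-fold toward the bulge and 6.75% toward the hairshaft. Of the 6 factors measured above the floor by 2 or more probe sets, 3 (Foxn1, Ovol1 and Hr) had the same direction in all of them. Dlx3, Vdr and Trps1 did not, although Vdr did with the loess trend removed and Dlx3 with quantile normalization.

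**Figure D3:**
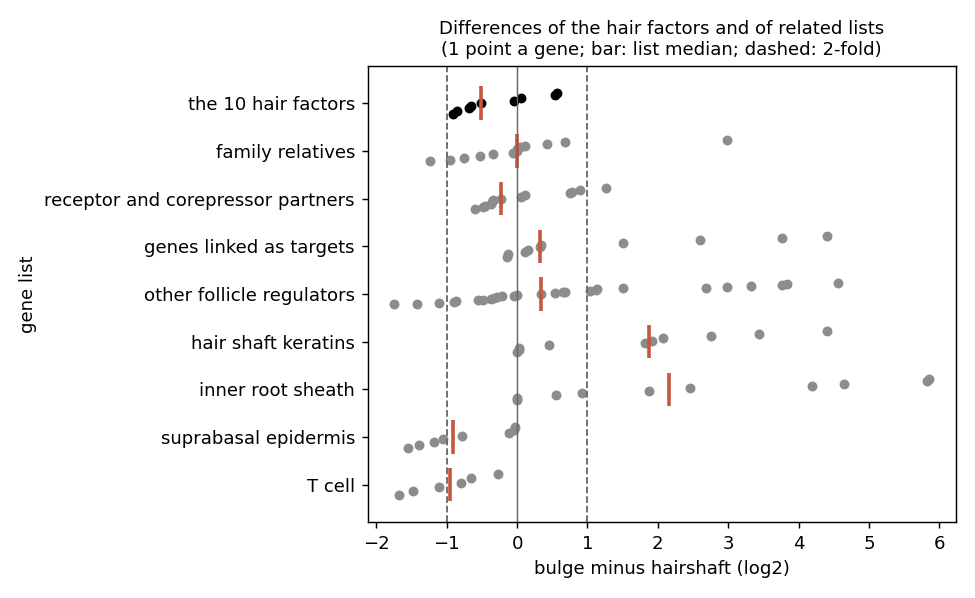
Bulge minus hairshaft difference (log2, horizontal axis) of each gene above the floor in the hair factors and related lists (vertical axis); red bars are list medians and dashed lines mark 2-fold. The hair factors lie between -0.91 and 0.56, whereas the hair shaft keratins and inner root sheath genes lie at or above 0.00, with medians of 1.87 and 2.16.

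Genes placed downstream of or beside these factors covered a wider range of differences, from -0.14 to at least 4.40. Of 10 such genes above the floor, 4 passed 2-fold toward the bulge and none toward the hairshaft, and the median was 0.33. Krt33a, an acidic hair keratin, read 7.07 in the bulge and lay under the floor in the hairshaft, a difference of at least 21.1-fold. Sox9, the outer root sheath factor, was higher in the bulge by 3.76 (2.11 with the mean of its probe sets). The Wnt inhibitor Wif1 was at least 6.07-fold higher there, and Hoxc13, a homeobox regulator of hair keratin genes, differed by 1.51 in the same direction. Under the 99th percentile floor Krt33a was at 2.86, Wif1 at 1.07 and Hoxc13 at 0.51. All 4 genes also belong to other lists given here, so the counts of those lists and of this one are not separate observations. Myc, on which Ovol1 and Prdm1 act as repressors, read 8.20 in the bulge and 7.87 in the hairshaft. Sostdc1 and Dkkl1, Wnt modulators linked to Hr, differed by 0.12 and -0.13, the latter turning with the loess trend removed. The dimmer probe set of Sostdc1 passed 2-fold toward the bulge (1.34), and the mean of its probe sets gave 0.73. Lef1 and Fgf2 were not above the floor.

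Among 27 other regulators of the follicle and epidermis above the floor, 10 passed 2-fold toward the bulge, 3 toward the hairshaft and 14 neither, with a median of 0.34. The largest differences toward the bulge were in the stem cell and outer sheath factors Lhx2 (4.56), Foxc1 (3.83), Sox9 (3.76) and Tbx1 (3.32). Those toward the hairshaft were in Runx3 (-1.74), Foxq1 (-1.42) and Sox21 (-1.10), the last known for the hair cuticle. With the mean of probe sets Runx3 was at -0.87 and Sox21 at -0.59, both under 2-fold. By brightest probe set, the 9 hair factors above the floor thus spanned a narrower range in these 2 arrays than this list of 27. A longer list can span a wider range by its size alone, and single probe sets of the factors ran from -1.49 to 1.73. The list of 27 also shares 5 genes with the bulge markers (Foxc1, Lhx2, Nfatc1, Sox9 and Tcf7l1). Its width toward the bulge is thus partly that of genes listed as marking the bulge. Whether the difference in range exceeds the variation between animals could not be tested.

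**Figure D4:**
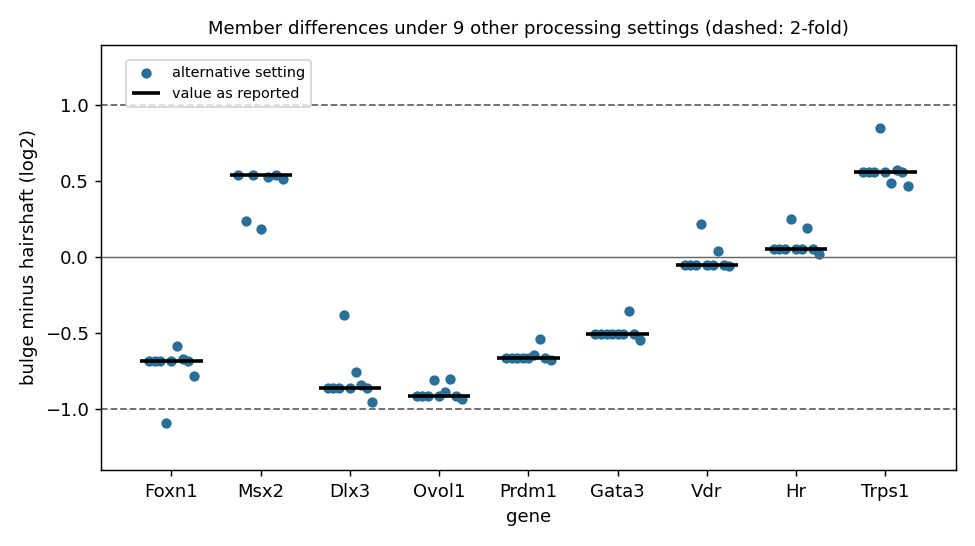
Bulge minus hairshaft difference (log2, vertical axis) of the 9 hair factors above the floor (horizontal axis) as reported (bars) and under up to 9 other processing settings (points); dashed lines mark 2-fold. Foxn1 passes 2-fold toward the hairshaft with the mean of its probe sets (-1.09), and Vdr is the factor whose points lie on both sides of 0.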

How the data were processed

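The authors made the deposited log2 values with GCRMA, per the submitters' processing notes, which name no version or setting; that the scale is log2 follows from the range of 2.23 to 15.36. No further scaling was applied, and 0 columns were left unused. A platform annotation gave 34958 probe sets 1 symbol, 932 several and 9211 none. Of those with 1 symbol, 34754 were matched by Entrez identifier to RefSeq names (GRCm38.p6), which were then used. How many symbols changed was not counted. Coordinates are not given because no genome build is named. A gene took its brightest probe set. Genes above the floor on at least 1 array were compared, and a dimmer value under the floor was raised to it, so that its fold reads "at least". With 1 array per group and 0 residual degrees of freedom there is no p-value or SD; the number of arrays limits the precision. Genes were counted at 2-fold. The 10 members and the gene lists (17 besides the members) were chosen with earlier results of these data known. Named from each list were up to 4 genes with the largest differences past 2-fold, the rest of any group of up to 5, and genes set beside a member. The counting was tested on simulated data. The 9 alternatives changed the floor (99th percentile of receptors, median of all probe sets, none), the probe set (mean, plain ones only), low values (offset of 16) or the scaling (loess with span 0.3, median, quantile). Software was matplotlib 3.10.9, statsmodels 0.14.6, numpy 2.4.6 and pandas 2.3.3 under Python 3.11.15.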

Additional observations from a re-analysis of the deposited data

How the results depend on the processing

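No paired analysis was possible because each structure had 1 array, and for the same reason no replicate could be left out. The count of hair factors at least 2-fold higher in the bulge was 0 under each of the 9 alternatives. The count toward the hairshaft was 0 under 8 of them and 1 (Foxn1) with the mean of probe sets, which takes in its dimmer probe set. Of 79 member differences recomputed, 78 moved by less than 1.5-fold and stayed under 2-fold, a count that includes values a setting could not change. The direction of Foxn1, Dlx3, Ovol1, Prdm1, Gata3, Hr and Trps1 was the same under each of the 9 alternatives. For these factors the changed floors, plain probe sets and median removal returned the reported value by construction, so those settings could not show stability. The mean of probe sets likewise could not move Prdm1 and Gata3, each with 1 probe set. For that pair only the offset, loess and quantile settings could change the value. Msx2 had no value with the 2 higher floors, so nothing is said of its stability. Vdr changed direction with the mean of probe sets (0.22) and the loess trend removed (0.05). For the other genes covered by the naming rule, 97 of 453 values moved by 1.5-fold or more or crossed the 2-fold limit, 94 of them to a smaller difference. Values near the floor, among the members those of Msx2 and of the dimmer Foxn1 probe set, are limited by signal over background.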

Other observations

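Probe sets of a gene also parted in related regulators, chosen here after their values were seen. For Runx1, a runt factor of follicle stem cells, the 5 probe sets above the floor ran from -0.90 to 2.23 in bulge minus hairshaft, with the brightest at -0.90. For Prdm2, a relative of Prdm1, 3 probe sets ran from -2.76 to 0.00, and for Med1, a coactivator of Vdr, 5 ran from -1.75 to 0.06.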
